A study of Mus musculus with 68 samples.

Results

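The transcriptomes of the inner cell mass (ICM) and the trophectoderm (TE) of mouse blastocysts made by somatic cell nuclear transfer (SCNT) were compared. The members were taken by their labels, as the 6 libraries named NT-ICM and the 6 named NT-TE, which are 12 of the 68 libraries of the series. For each gene the comparison also asked whether the ICM and TE differed in the same direction within replicates 1 to 3 and, separately, within replicates 4 to 6. The SCNT embryos were made from cumulus cell nuclei injected into enucleated oocytes of B6D2F1 (BDF1) mice, activated with SrCl2 and cytochalasin B and grown in G-1 PLUS medium, and the same holds for every SCNT group. Blastocysts were taken at embryonic day 4 and separated by hand with needles of 20 µm inner diameter, so cells were assigned by position and shape and not by a marker. About 10 cells went into each library of polyadenylated RNA, made by Smart-seq2, a method that amplifies whole transcripts, and read as pairs of 150 bases. The same 2 tissues were also taken from fertilized blastocysts labelled control and untreated (2 ICM and 2 TE libraries), which belong to a morpholino experiment on C57BL/6j zygotes. The paper's legend for these tissues names a control morpholino as the comparison group, so these libraries may come from injected embryos. The labels do not say whether replicates of a group came from separate embryos or cultures, while the paper describes SCNT RNA-seq replicates of other panels as biologically independent. Each p-value measures the spread between these libraries, whatever its source.

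The blastocyst holds the first lineages of the mammalian embryo. The TE is a polarized, pumping epithelium on the outside that starts the placenta, and its identity rests on the Hippo pathway, TEAD4 and CDX2. The ICM inside gives the epiblast, which forms the body and depends on Nanog, Sox2 and Pou5f1, and the primitive endoderm, which forms part of the yolk sac and is set apart by FGF4 and its receptors, then GATA6 and SOX17.

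The depth behind the values was similar in both tissues but differed between the sets of replicates. The deposited coverage corresponded to 2.42 to 4.22 aligned gigabases in the ICM libraries and 2.15 to 4.28 in the TE libraries, and no read counts were given. Over both tissues it was 2.15 to 2.66 gigabases in replicates 1 to 3 and 3.65 to 4.28 in replicates 4 to 6. Whether this depth bears on the differences between the sets was not tested. Libraries of replicates 1 to 3 differed from replicates 4 to 6 in the share of genes listed at 0, most of all in the ICM. Of the genes tested, 10.2% to 15.3% were listed at 0 in ICM replicates 1 to 3 and 1.59% to 3.74% in ICM replicates 4 to 6, while TE libraries ranged from 2.24% to 8.96%. Since 1 or 2 of 10 housekeeping genes were also below 1 TPM (transcripts per 1000000) in 4 of these libraries, a value of 0 for 1 gene in 1 library can be a missed gene. The Pearson correlation of log2(TPM + 1) across genes was 0.74 among ICM replicates 1 to 3 and 0.89 to 0.91 among ICM replicates 4 to 6. In the TE it was 0.89 and 0.92. ICM replicates 1 to 3 correlated at 0.76 to 0.80 with ICM replicates 4 to 6 and at 0.77 to 0.81 with TE replicates 1 to 3. They were thus less alike among themselves than they were like these other libraries.

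The 4 markers Nanog, Cdx2, Anxa3 and Upp1 were set beside the labels. Anxa3 and Upp1 had the largest negative and positive difference of all genes tested. The gene lists were chosen with earlier results of these data known, so the markers are no independent check of the labels. Nanog, the pluripotency factor, was higher in the ICM, while Cdx2, the TE transcription factor, and Anxa3, a calcium-binding annexin, were higher in the TE. Upp1, which encodes uridine phosphorylase and splits uridine for salvage or energy, had been placed in the TE list but was higher in the ICM. TE transcripts were present in every ICM library. The summed TPM of the TE list without Upp1 was 4294 to 16237 in the ICM and 13217 to 30196 in the TE, so ICM replicate 5 (16237) exceeded TE replicates 1 to 3 (13217 to 15019). The summed TPM of the epiblast list was 21889 to 27289 in the ICM and 15876 to 25938 in the TE, with Dppa5a as its largest gene in every library. Cells of one lineage in the other tissue and RNA of these genes within one cell cannot be told apart, nor can fewer cells of a type and less RNA per cell. Of 14 cumulus cell markers, 8 to 13 were listed at 0 in each of the 12 libraries, among them Has2, Ptx3, Fshr and Amh in every one. Their summed TPM was 0.971 to 9.55 in the ICM and 0.169 to 60.4 in the TE, the 2 highest TE values resting on Cyp11a1, a steroid-making enzyme, which held 49.1 of the 49.7 TPM in TE replicate 4 and nearly the whole sum in TE replicate 6.

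The start regions of 2 genes whose ICM and TE libraries did not overlap are shown, as they hold the letters of motifs bound by factors of the TE. Upp1 was high in the ICM and Lrp2, an endocytic receptor, was high in the TE. The sequences are from RefSeq on GRCm38.p6, reach from 250 bases before to 50 bases after an annotated start and run 5′ to 3′ on the gene's strand. They lie at chr11:9117758-9118057 (plus strand), chr11:9118257-9118556 (plus strand) and chr2:69585980-69586279 (minus strand). Capitals mark GGAATG (TEAD, on either strand) and GCCNNNGGC (TFAP2).
Upp1, start 1: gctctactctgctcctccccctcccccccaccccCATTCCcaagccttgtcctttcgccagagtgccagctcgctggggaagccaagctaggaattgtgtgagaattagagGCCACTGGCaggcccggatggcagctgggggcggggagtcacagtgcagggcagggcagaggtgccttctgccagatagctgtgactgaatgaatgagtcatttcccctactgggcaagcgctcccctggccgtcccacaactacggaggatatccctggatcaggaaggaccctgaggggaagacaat
Upp1, start 3: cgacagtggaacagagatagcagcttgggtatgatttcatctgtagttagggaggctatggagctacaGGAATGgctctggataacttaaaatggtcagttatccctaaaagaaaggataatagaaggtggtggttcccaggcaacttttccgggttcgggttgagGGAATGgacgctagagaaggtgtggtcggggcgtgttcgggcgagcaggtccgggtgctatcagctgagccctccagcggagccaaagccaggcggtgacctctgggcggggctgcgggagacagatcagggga
Lrp2: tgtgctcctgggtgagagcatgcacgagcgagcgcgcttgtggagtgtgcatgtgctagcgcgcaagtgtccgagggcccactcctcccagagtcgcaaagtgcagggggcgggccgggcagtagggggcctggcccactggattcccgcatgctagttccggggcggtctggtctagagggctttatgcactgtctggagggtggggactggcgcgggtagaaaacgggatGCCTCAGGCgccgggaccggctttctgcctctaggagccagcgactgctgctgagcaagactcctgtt

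The Upp1 start 1 window held CATTCC, the reverse complement of the TEAD letters, at base 35 and the TFAP2 letters at base 112, and start 3 held the TEAD letters at bases 69 and 167. The Lrp2 window held the TFAP2 letters at base 233. Start 2 of Upp1, which is not shown, overlaps start 1 and held the same TFAP2 site, there at base 17. Of 32851 RefSeq promoter windows of 300 bases, 14.7% held the TEAD letters and 16.6% the TFAP2 letters on either strand. These shares are for 1 motif in 1 window, whereas Upp1 had 3 windows, 6 motifs were searched and the windows shown were picked for a match. Another 4 motifs were searched on both strands. The letters AGATAA for zinc finger factors of the GATA family were held by 11.2% of windows. For CDX2 the letters TTTATGG were held by 2.75% of windows. For POU factors the letters ATGCAAAT were held by 1.74% of windows. For SOX factors the letters ACAAAG were held by 18.7% of windows. No motif overlapped another in the windows shown. None of the 6 was found in the windows of Utf1, Fgfr2 and Tfap2a. A match is a description of letters and not of binding.

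Across all genes, few differences between the ICM and TE passed the test. With limma on log2(TPM + 1), 18 of 10173 genes passed an adjusted p of 0.05 (Benjamini-Hochberg) with at least a 2-fold difference, which is 0.177% of genes. Of these, 11 (0.108%) were higher in the ICM and 7 (0.0688%) in the TE. An unadjusted p under 0.05 was seen for 1031 of the 10173 genes, to be set beside the list counts below. With the replicate number as a block, 49 genes passed (0.482%), 16 of them among the 18. With the set of 3 replicates as a term instead, 115 genes passed, 50 higher in the ICM and 65 in the TE, and these held all 18. TPM rescaled over the annotated genes gave 32, with 23 higher in the ICM and 9 in the TE. The count rested on single libraries: it was 0 without ICM replicate 6 (with 1034 genes at an unadjusted p under 0.05), 31 without ICM replicate 5, 10 without ICM replicate 2, 5 without ICM replicate 3, 3 without TE replicate 1 or TE replicate 6, and 4 without TE replicate 3 or TE replicate 4. Within replicates 1 to 3 alone 5 of 9372 genes passed (0.0534%), and within replicates 4 to 6 alone 64 of 10436 (0.613%).

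A difference of at least 2-fold in the same direction in both sets of 3 replicates was seen for 658 genes (6.47%), of which 212 (2.08%) were higher in the ICM and 446 (4.38%) in the TE. With quantile normalization the same count was 603, split evenly as 300 and 303. The median difference of all genes was -0.18 on the log2 scale, -0.37 within replicates 1 to 3 and 0.04 within replicates 4 to 6, so values below are to be read against a shift toward the TE in replicates 1 to 3. Of all 10173 genes 60.9% had a negative difference, that is, were higher in the TE. Of the 658 genes, 33 had every ICM library above every TE library (0.324% of genes tested) and 45 the reverse (0.442%). The plot of both sets of replicates shows where the lineage genes fell in that cloud.

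**Figure D1:**
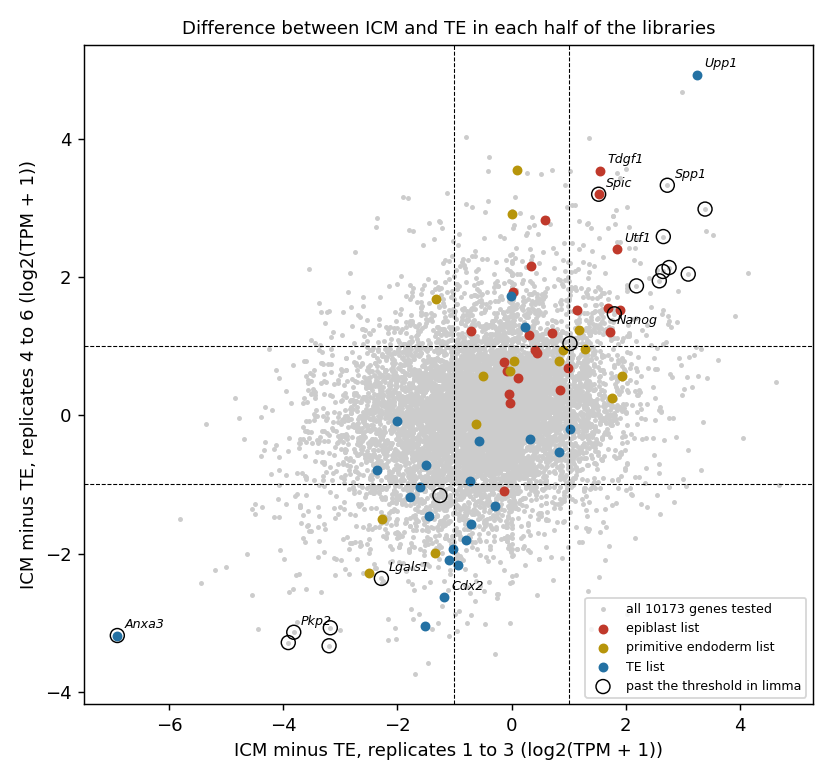
Each point is 1 of the 10173 genes tested, with the ICM minus TE difference in mean log2(TPM + 1) within replicates 1 to 3 on the x axis and within replicates 4 to 6 on the y axis. Colours mark the 3 lineage lists, rings the 18 genes past the limma threshold and dashed lines a 2-fold difference: Upp1 lies at 3.26 and 4.93, Anxa3 at -6.91 and -3.19, and Spic at 1.53 and 3.20.

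Of 75 genes in the epiblast, primitive endoderm and TE lists, 62 had a mean of at least 1 TPM and were tested. In both sets of replicates 20 of them held a 2-fold difference (32.3% against 6.47% of all genes), 9 toward the ICM and 11 toward the TE. The lists were chosen with earlier results of these data known. This share and the list shares below therefore describe the lists and are no test of them. Only Spic and Anxa3 of the 62 also passed the limma test. The tested genes closest to the 2-fold limit were Krt18 (-1.03 on the log2 scale in its smaller set) and Tfap2a (-1.04) inside, and Lamb1 (0.96) and Gata3 (-0.94) outside.

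**Figure D2:**
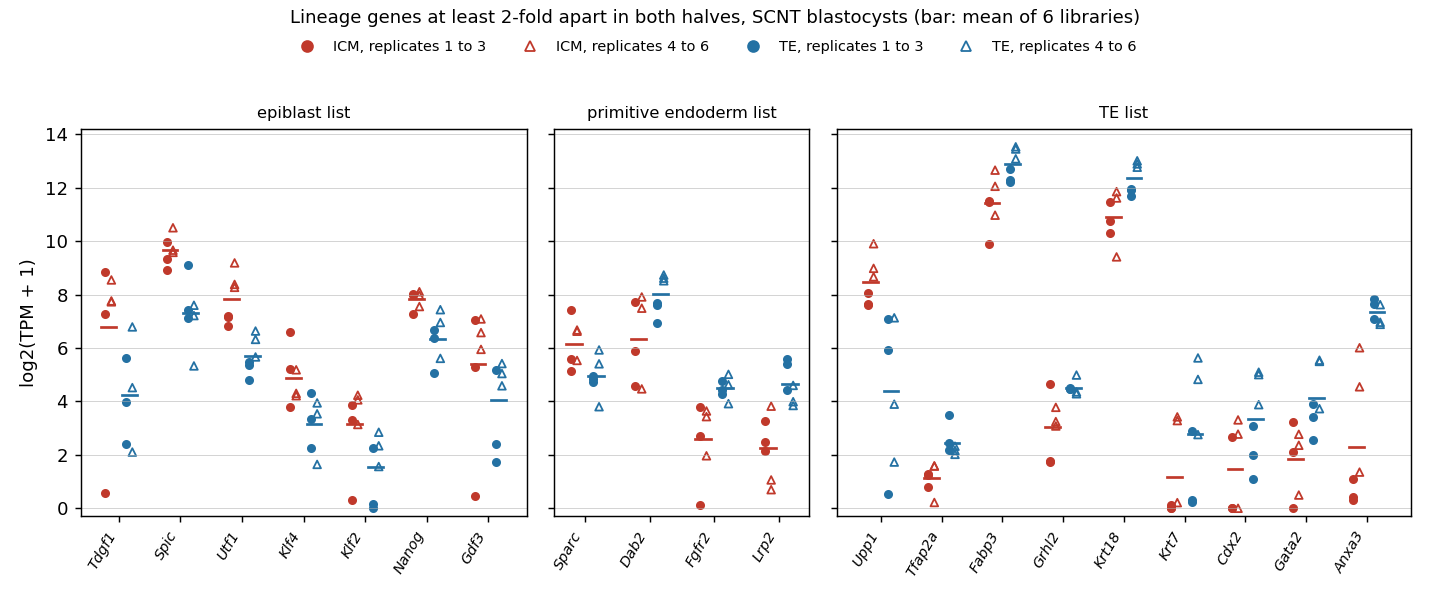
Each point is 1 library and each bar the mean of 6, as log2(TPM + 1), for the 20 lineage genes at least 2-fold apart in both sets of replicates (filled circles, replicates 1 to 3; open triangles, replicates 4 to 6; red, ICM; blue, TE). Utf1, Upp1, Fgfr2, Lrp2, Tfap2a and Anxa3 have no overlap between the ICM and TE libraries, whereas the other 14 overlap. Of all 658 genes at least 2-fold apart in both sets, 33 had no overlap toward the ICM and 45 toward the TE.

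Genes of the epiblast were higher in the ICM as a group. Of 28 listed genes 23 were tested and 22 had a positive difference. A negative difference was seen for 4.35% of those tested, against 60.9% of all genes. In both sets of replicates 7 held at least 2-fold toward the ICM (2.08% of all genes did): Tdgf1, Spic, Utf1, Klf4, Klf2, Nanog and Gdf3. The list median was 0.84 on the log2 scale against -0.18 over all genes. Spic, an Ets family transcription factor on mm10 chromosome 10 (88675270 to 88683023), had a lowest, median and highest level of 477, 785 and 1446 TPM in the ICM and 39.2, 158 and 552 TPM in the TE. The groups overlapped at TE replicate 2, which exceeded ICM replicate 1. Its difference was 2.36 ± 0.45 (SE, n = 6 per group) on the log2 scale, with a limma adjusted p of 0.0432. It passed in 9 of 23 alternative settings, and leaving out a library other than TE replicate 2 moved its adjusted p to between 0.054 and 0.113.

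Utf1, a chromatin protein of pluripotent cells on chromosome 7 (139943856 to 139945112), had a lowest, median and highest level of 112, 226 and 581 TPM in the ICM and 26.6, 46.6 and 98.3 TPM in the TE. Every ICM library was above every TE library. Its log2 difference of 2.13 ± 0.42 missed the limma threshold with an adjusted p of 0.0519, and with the replicate block the adjusted p was 0.0201. Nanog (chromosome 6, 122707489 to 122714633) had 154, 250 and 274 TPM in the ICM and 32.3, 91.8 and 172 TPM in the TE as lowest, median and highest. Only ICM replicate 3 (154 TPM) lay below the highest TE library, replicate 4. Nanog differed by 1.72 in replicates 1 to 3 and 1.21 in replicates 4 to 6 on the log2 scale, and its limma adjusted p was 0.107. In SCNT morulae, the stage before, the median was 54.6 TPM.

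The remaining 4 epiblast genes that held did so with wide spread. Tdgf1, the Nodal co-receptor Cripto, ranged from 0.469 to 455 TPM in the ICM with a median of 213, and from 3.30 to 109 TPM in the TE with a median of 18.2. Its low value was ICM replicate 3, and it differed by 2.55 on the log2 scale (limma adjusted p of 0.488). Gdf3, a TGF-beta ligand, was likewise low in 1 ICM library, at 0.373 TPM in replicate 2 against 37.9 to 135 TPM in the others. Its log2 difference was 1.34, which was 2.33 without ICM replicate 2 and 0.87 without TE replicate 1. The Kruppel-like factors Klf4 and Klf2, which sustain the naive state, differed by 1.71 and 1.62 on the log2 scale, with Klf4 at 12.8 to 95.3 TPM in the ICM and 2.12 to 18.9 TPM in the TE and Klf2 medians of 11.3 and 2.88 TPM. The limma adjusted p of these 3 genes lay between 0.336 and 0.697.

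Other core pluripotency genes were not set apart in this way. Pou5f1 (Oct4) had medians of 57.3 TPM in the ICM and 26.7 TPM in the TE, with a log2 difference of 0.73 in all and 0.31 in replicates 1 to 3. Sox2 stayed under the mean of 1 TPM and was not tested: it was listed at 0 in ICM replicates 1 and 3, at 1.03 to 4.01 TPM in the other 4 ICM libraries, and at 0 in every TE library but replicate 5 (0.577 TPM). Fgf4, the ligand that the epiblast sends to the primitive endoderm, reached 11.5 TPM in the ICM and 0.470 TPM in the TE, but differed by 0.35 in replicates 1 to 3 and 2.17 in replicates 4 to 6. The 2 most abundant members, Dppa5a and Dppa3, both maternal and pluripotency-associated RNA- or chromatin-binding proteins, differed by 0.07 and 0.33 on the log2 scale. Dppa5a ran from 9897 to 13309 TPM in the ICM and from 9499 to 15750 TPM in the TE, and its difference was -0.03 in replicates 1 to 3.

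Primitive endoderm genes were split in direction. Of 23 listed genes 16 were tested, 12 with a positive and 4 with a negative difference (25.0% negative, against 60.9% of all genes). None passed the limma test, while 5 had an unadjusted p under 0.05. Toward the ICM only Sparc held in both sets of replicates. Sparc, a matrix glycoprotein on chromosome 11, had 33.8, 72.1 and 168 TPM in the ICM and 12.9, 29.1 and 59.8 TPM in the TE as lowest, median and highest. Its log2 difference was 1.21 with a limma adjusted p of 0.376. The defining regulators were low or uneven: Gata4 did not exceed 0.247 TPM in any ICM library, and Sox17 was 9.85 TPM in ICM replicate 4 and 62.3 TPM in replicate 6 but at or under 0.052 TPM in the other 4. Pdgfra, the receptor that marks the lineage, was 7.21 to 19.5 TPM in ICM replicates 4 to 6, 3.81 TPM in replicate 2 and at or near 0 in replicates 1 and 3, against at most 2.89 TPM in the TE. Gata6 differed by -1.32 in replicates 1 to 3 and 1.68 in replicates 4 to 6, so its direction turned between the sets.

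Lrp2, Fgfr2 and Dab2 of the same list were higher in the TE in both sets. Lrp2 (megalin; chromosome 2, 69424335 to 69586067), an endocytic receptor with start sequence printed above, had 0.620, 4.00 and 13.1 TPM in the ICM and 13.4, 21.8 and 47.5 TPM in the TE as lowest, median and highest. No ICM library reached the lowest TE library, and the log2 difference was -2.39 ± 0.62 with a limma adjusted p of 0.134. Fgfr2, a receptor of FGF4 on chromosome 7 (130162451 to 130266808), had 0.0800, 7.65 and 12.9 TPM in the ICM and 14.1, 22.0 and 31.3 TPM in the TE. The libraries did not overlap either, with a difference of -1.89 ± 0.63 on the log2 scale and a limma adjusted p of 0.3. Dab2, an endocytic adaptor that works with Lrp2, ranged from 21.1 to 239 TPM in the ICM and from 122 to 424 TPM in the TE, a log2 difference of -1.67 (limma adjusted p of 0.340). These 3 genes are also known from the TE, and on average they were higher there than in the ICM in fertilized embryos as well.

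TE genes were lower in the ICM as a group, with wide spread. Of 24 listed genes 23 were tested, 18 with a negative difference (78.3% against 60.9% of all genes). In both sets of replicates 8 held toward the TE (4.38% of all genes did). Besides Anxa3 and Cdx2 these were Gata2, Krt7, Krt18, Grhl2, Fabp3 and Tfap2a, and the list median was -1.15 on the log2 scale. Anxa3 (chromosome 5, 96793385 to 96845968) had 0.247, 1.35 and 63.4 TPM in the ICM and 117, 165 and 225 TPM in the TE as lowest, median and highest. No ICM library reached the lowest TE library, and the 2 highest ICM values came from replicates 4 (22.4 TPM) and 5 (63.4 TPM). The log2 difference was -5.05 ± 0.84 with a limma adjusted p of 0.0230, the largest negative difference among all genes tested. Without single libraries its adjusted p ran from 0.00135 (without ICM replicate 5) to 0.0808 (without ICM replicate 6), and it also missed 0.05 without ICM replicates 2 or 3 and without TE replicates 1, 3, 4 or 6.

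Cdx2 (chromosome 5, 147300900 to 147307249) was low in both tissues. It was listed at 0 in ICM replicates 1, 2 and 4 and at 5.32, 8.90 and 5.84 TPM in ICM replicates 3, 5 and 6. In the TE it was 1.14, 7.48 and 3.004 TPM in replicates 1 to 3 and 31.0, 13.7 and 33.1 TPM in replicates 4 to 6. TE replicates 1 and 3 thus lay below ICM replicates 3, 5 and 6, and TE replicate 2 below ICM replicate 5, while within replicates 4 to 6 the tissues were separate. Its log2 difference was -1.18 in replicates 1 to 3 and -2.63 in replicates 4 to 6, and -1.90 ± 0.87 in all, with a limma adjusted p of 0.477.

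Among the other TE regulators, Gata2 had medians of 3.71 TPM in the ICM and 13.2 TPM in the TE, a log2 difference of -2.28. Tfap2a was 0.162 to 1.996 TPM in the ICM and was 3.05 to 10.3 TPM in the TE, without overlap. Its log2 difference of -1.32 was -0.46 under quantile normalization (limma adjusted p of 0.836). Grhl2, an epithelial transcription factor, had medians of 7.97 TPM in the ICM and 21.1 TPM in the TE. Gata3, which acts beside Cdx2, was 72.7 to 608 TPM in the ICM and 340 to 1016 TPM in the TE, with a log2 difference of -0.94 in replicates 1 to 3 and -2.17 in replicates 4 to 6. Eomes and Tfap2c had log2 differences of -0.47 and 0.41. The limma adjusted p of these 6 regulators was between 0.229 and 0.817.

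Structural TE genes were abundant in both tissues. Krt18, an epithelial keratin, had 679, 2258 and 3692 TPM in the ICM and 3309, 5458 and 8221 TPM in the TE as lowest, median and highest, and only ICM replicate 5 exceeded a TE library. Its log2 difference was -1.48 ± 0.36 (limma adjusted p of 0.107). Krt8, its partner, ranged from 1061 to 4320 TPM in the ICM and from 1455 to 6849 TPM in the TE, with a log2 difference of -0.80. Fabp3, a fatty acid carrier, had medians of 2843 TPM in the ICM and 7655 TPM in the TE, and its log2 difference of -1.46 had a limma adjusted p of 0.110, or 0.0289 with the replicate block. Krt7 was at 0 or near it in 4 ICM libraries and at 9.71 and 8.72 TPM in ICM replicates 4 and 5. It was also low in TE replicates 1 and 2 (0.168 and 0.246 TPM), so its difference of -1.10 in replicates 1 to 3 rested on TE replicate 3 (6.35 TPM). In TE replicates 4 to 6 it was 5.76 to 48.4 TPM. The log2 difference was -1.60 in all and -1.03 without TE replicate 6. In 5 of the 8 TE list genes that held, ICM replicate 5 was the highest ICM library, the replicate that also had the largest TE list sum of the ICM. Without that library, 21 genes instead of 7 passed the limma threshold toward the TE.

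Upp1 (chromosome 11, 9118008 to 9136170) ran against its list. The ICM libraries held 201, 192, 268, 504, 405 and 955 TPM in replicates 1 to 6, and the TE libraries 0.446, 134, 60.3, 139, 13.9 and 2.32 TPM. Every ICM library was above every TE library, but the TE values spread over more than 2 orders on a log10 scale. The log2 difference was 4.09 ± 0.97, the largest positive difference of all genes tested, with a limma adjusted p of 0.0978, and 0.0722 with the replicate block. SCNT morulae held 0 to 3.56 TPM. In fertilized blastocysts the ICM libraries held 438 and 466 TPM and the TE libraries 1.48 and 44.4 TPM, the same order of tissues.

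Outside the lists, 7 genes past the threshold were higher in the ICM with no overlap between libraries and a mean of at least 5 TPM, and 4 were higher in the TE, beside predicted genes that are not named. Spp1, the secreted phosphoprotein osteopontin (chromosome 5, 104435111 to 104441053), had 2816, 4359 and 6417 TPM in the ICM and 104, 593 and 1179 TPM in the TE as lowest, median and highest. The lowest ICM library was more than 2-fold above the highest TE library. Its log2 difference was 3.03 ± 0.44 with a limma adjusted p of 0.0162, and it passed in 20 of 23 alternative settings, the exceptions including the fit without ICM replicate 6 (adjusted p of 0.0672). Morulae held 23.0 to 60.9 TPM, so both blastocyst tissues were above the stage before.

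Tcl1, an Akt co-activator of pluripotent cells, had a median of 107 TPM in the ICM and 11.7 TPM in the TE, a log2 difference of 3.19 ± 0.61 (limma adjusted p of 0.0424), and passed in 10 of 23 alternative settings. Ppm1a, a phosphatase that acts on SMAD proteins, had medians of 228 and 32.9 TPM, a log2 difference of 2.62, and passed in 17 of 23. Jam2, a junctional adhesion molecule, had medians of 33.1 and 5.10 TPM, a log2 difference of 2.57. Jam2 passed with a limma adjusted p of 0.0424 but not with the replicate block (0.0514), and in 9 of 23 alternative settings. Plbd1, a phospholipase B-like lysosomal protein, had 72.0, 94.5 and 142 TPM in the ICM and 10.9, 20.8 and 29.5 TPM in the TE, a log2 difference of 2.27 ± 0.34, and passed in 21 of 23 alternative settings. Mgarp, a mitochondrial protein, and Becn2, an autophagy gene without introns that is related to Becn1 and may share reads with it, had log2 differences of 2.03 and 1.64, and passed in 9 and 11 of 23. The other named gene toward the ICM, Glrx, a glutaredoxin whose libraries overlapped and which was named after its values were seen, had a log2 difference of 1.03 and lost its call with the replicate block (adjusted p of 0.0519).

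**Figure D3:**
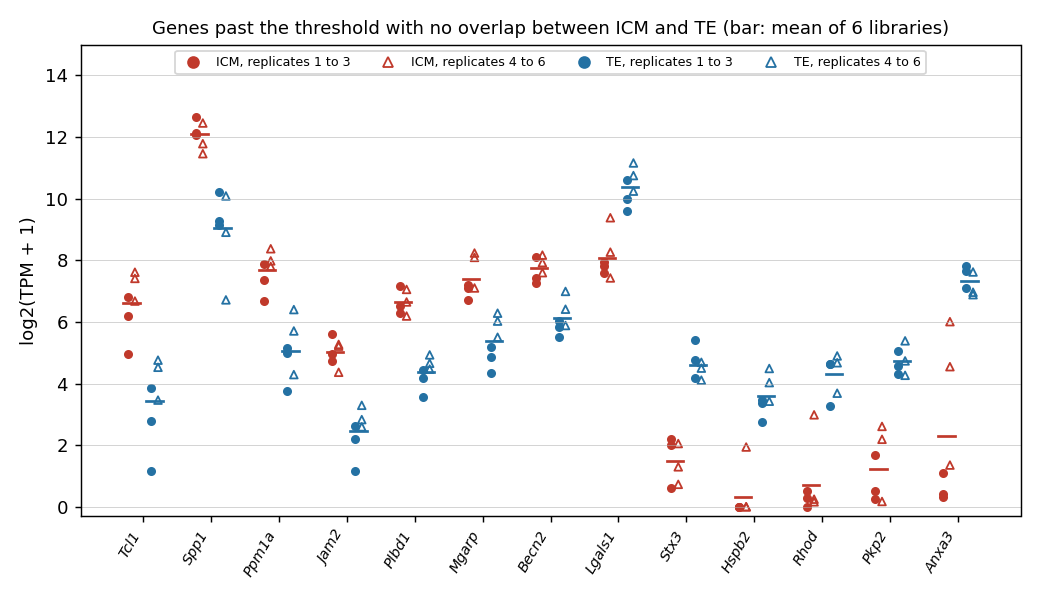
Each point is 1 library and each bar the mean of 6, as log2(TPM + 1), for the 13 named genes that passed the limma threshold with no overlap between tissues (red, ICM; blue, TE; filled circles, replicates 1 to 3; open triangles, replicates 4 to 6). Spp1 is at 2816 TPM or more in every ICM library, and ICM replicate 5 is the highest ICM point of Anxa3, Pkp2, Rhod, Hspb2 and Lgals1.

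In the TE, Lgals1, a galectin secreted by many epithelia (chromosome 15, 78926725 to 78930465), had 770, 1384 and 2285 TPM against 171, 235 and 666 TPM in the ICM as lowest, median and highest. No ICM library reached the lowest TE library, and the log2 difference was -2.32 ± 0.32 with a limma adjusted p of 0.0162. It passed in 21 of 23 alternative settings, and not without ICM replicate 6 (adjusted p of 0.0560). Stx3, a syntaxin that directs vesicles to the apical membrane of polarized cells, had medians of 23.2 TPM in the TE and 2.22 TPM in the ICM, a log2 difference of -3.13, and passed in 14 of 23 alternative settings. Rhod, a small GTPase of endosome movement, had medians of 23.8 TPM in the TE and 0.198 TPM in the ICM, where replicate 5 alone reached 6.91 TPM. Hspb2, a small heat shock protein, was listed at 0 in 5 ICM libraries and at 2.83 TPM in replicate 5, against 5.77 to 21.4 TPM in the TE. Rhod passed in 10 and Hspb2 in 13 of the 23 settings. Mt1, a metallothionein named after its values were seen, overlapped between tissues and had a log2 difference of -1.21. Without ICM replicate 6 none of these genes passed.

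Of 32 cell junction and polarity genes, all tested, 24 had a negative difference (75.0% against 60.9% of all genes). In both sets of replicates 5 held toward the TE (4.38% of all genes did) and 1 toward the ICM, with a list median of -0.66 on the log2 scale against -0.18 over all genes. Pkp2, a desmosomal plakophilin (chromosome 16, 16213345 to 16272712), had 0.126, 1.32 and 5.10 TPM in the ICM and 18.2, 24.1 and 40.8 TPM in the TE as lowest, median and highest. The tissues did not overlap, and its log2 difference of -3.48 ± 0.58 passed with a limma adjusted p of 0.0230, in 14 of 23 alternative settings. The tight junction claudins Cldn4 and Cldn3 and the scaffold Tjp3 had log2 differences of -1.66, -1.63 and -1.57, and Cdh1, the adherens junction cadherin, one of -1.28. Prkci, an atypical protein kinase C of the polarity complex, ran the other way with 1.67. None of these 5 passed the limma test (adjusted p between 0.264 and 0.605). Epcam and Ctnna1, the most abundant members, had differences of -0.66 and -0.30.

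Genes of blastocoel filling had small differences. All 10 tested of 14 listed had a negative difference (60.9% of all genes did), with a median of -0.34 against -0.18 over all genes, and Aqp9, a water and solute channel, alone held in both sets (-1.46). None passed the limma test or had an unadjusted p under 0.05. Atp1b1, the sodium pump subunit, had a log2 difference of -0.67. Of 28 tested actin and annexin genes 25 had a negative difference (89.3% against 60.9% of all genes), with a median of -0.60, and 11 had an unadjusted p under 0.05. The 2 that held in both sets, Tpm1 and S100a11, are 7.14% of those tested, against 6.47% of all genes. Among them Tpm1, a tropomyosin, had medians of 259 TPM in the ICM and 728 TPM in the TE. It had a log2 difference of -1.31 and a limma adjusted p of 0.0808, or 0.0470 with the replicate block. S100a11, a calcium-binding partner of annexins, differed by -1.79 on the log2 scale (limma adjusted p of 0.358).

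In the Hippo pathway none of 17 tested genes (22 listed) passed or held in both sets of replicates, and 2 had an unadjusted p under 0.05. Its median was -0.32, but 0.03 under quantile normalization. Vgll4, which competes with YAP for TEAD proteins, had a log2 difference of -1.05, which was -0.34 without ICM replicate 2. Cyr61, a YAP target, differed by 4.07 in replicates 1 to 3 and -0.32 in replicates 4 to 6.

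FGF and ERK signalling genes had a median of 0.03 on the log2 scale over 15 tested of 21 listed, and none passed without a block, while 3 had an unadjusted p under 0.05. Spry2, a feedback inhibitor that ERK signalling turns on, had 258, 452 and 799 TPM in the ICM and 76.8, 157 and 540 TPM in the TE as lowest, median and highest. Its log2 difference was 1.26 with a limma adjusted p of 0.378, or 0.0337 with the replicate block. Klb, an FGF co-receptor, differed by 1.54, and Frs2, the adaptor of FGF receptors, by -1.64.

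Nodal, BMP and Wnt genes (21 tested of 30 listed) likewise gave no gene past the threshold, 4 with an unadjusted p under 0.05, and a median of -0.29 that turned to 0.07 under quantile normalization. The ligands Wnt6 and Wnt3a and the receptor Acvr2b held toward the TE with log2 differences of -1.80, -1.52 and -2.57. Wnt3a did not overlap, at no more than 1.22 TPM in the ICM and 1.68 to 5.50 TPM in the TE. Id3, a BMP target, and Tcf7l2, a Wnt effector, held toward the ICM with 2.68 and 1.29. Id3 had a median of 104 TPM in the ICM and 9.20 TPM in the TE.

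Chromatin lists gave no gene past the limma threshold, though single genes differed at least 2-fold in both sets of replicates. Of 18 tested genes of H3K9 methylation (20 listed), none passed, 2 had an unadjusted p under 0.05, and 2 held toward the ICM (2.08% of all genes did). Kdm3a, an H3K9 demethylase (chromosome 6, 71588970 to 71632917), had 20.6, 25.8 and 52.2 TPM in the ICM and 1.89, 6.18 and 15.5 TPM in the TE as lowest, median and highest. Its libraries did not overlap, and the log2 difference of 2.05 ± 0.50 had a limma adjusted p of 0.107. Zfp57, the zinc finger protein that keeps imprints, ranged from 18.2 to 107 TPM in the ICM and from 7.70 to 19.99 TPM in the TE, with a log2 difference of 1.78 (limma adjusted p of 0.196). Of 15 tested DNA methylation and Polycomb genes, none passed and 2 had an unadjusted p under 0.05, and Tet1, which oxidizes methylcytosine, alone held in both sets (1.19). Among 6 genes imprinted by H3K27me3, all tested, none passed or held and 1 had an unadjusted p under 0.05, and Slc38a4 and Sfmbt2 had log2 differences of 0.55 and -1.13.

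Metabolic and stress lists gave single genes only, none past the limma threshold. An unadjusted p under 0.05 was seen for 1 of 15 nucleoside and 6 of 21 lysosome genes. It was also seen for 4 of 18 transporter, 1 of 15 glycolysis and 3 of 16 p53 or apoptosis genes. Over all genes it was 1031 of 10173. In nucleoside metabolism, the list nearest to Upp1, 7 of 15 tested genes had a positive difference, and Ada and Dctd, both deaminases, held toward the TE (-1.78 and -1.14). Hexokinases ran in opposite directions, with Hk1 at 1.17 and Hk2 at -1.15. Of the lysosomal genes Lamp2, a lysosomal membrane protein, held toward the ICM without overlap (109 to 227 TPM against 26.1 to 105 TPM, a log2 difference of 1.35 and a limma adjusted p of 0.153), and Ctsh, a cathepsin, held toward the TE (-1.80). The transporter list had Apoe, a lipid carrier, at 1.41 and Folr1, a folate receptor, at -1.26. Among p53 and apoptosis genes 13 of 16 tested had a negative difference (81.2% against 60.9% of all genes), with a median of -0.61 (-0.19 under quantile normalization). Trp53 itself held toward the ICM, with medians of 122 and 58.5 TPM, a log2 difference of 1.45 and a limma adjusted p of 0.201. Sesn2, a p53 target, held toward the TE (-1.40).

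Of 14 later trophoblast and placenta genes 3 were tested, none passed and 2 had an unadjusted p under 0.05. Ndrg1, a stress-response gene of trophoblast, ranged from 0.0787 to 74.9 TPM in the ICM and from 65.9 to 236 TPM in the TE, a log2 difference of -3.23 (limma adjusted p of 0.125). Phlda2, an imprinted inhibitor of placental growth, had a log2 difference of -2.23, with ICM replicate 5 at 20.3 TPM and the other 5 at no more than 0.436 TPM. Of 12 oocyte genes 4 were tested, and their summed TPM was 11.4 to 44.0 in the ICM and 38.1 to 70.0 in the TE.

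**Figure D4:**
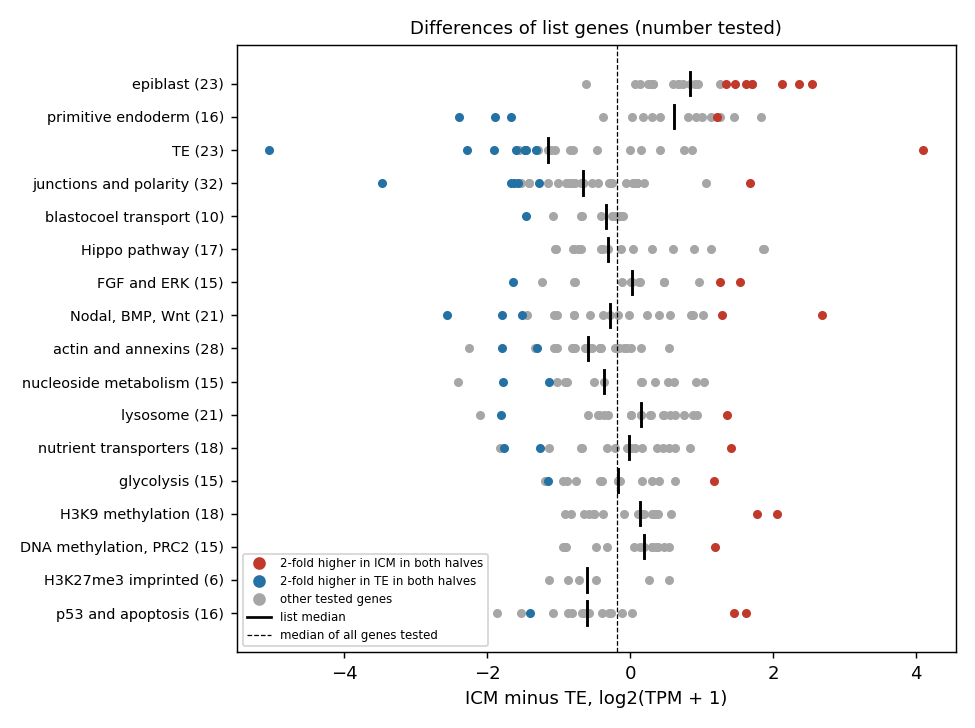
Each point is 1 tested gene of a list (number tested in brackets), with its ICM minus TE difference in log2(TPM + 1) on the x axis, coloured where it is at least 2-fold in both sets of replicates. Black bars are list medians, which run from 0.84 (epiblast) to -1.15 (TE), and the dashed line is the median of all genes at -0.18.

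The number of genes detected did not separate the tissues over all 6 replicates. Genes at 1 TPM or more numbered 8011 ± 1818 (SD, n = 6) in the ICM and 9043 ± 564 in the TE, a difference of -1032 with a two-sided exact permutation p of 0.197. The sign differed between the sets of replicates: -2169 in replicates 1 to 3 (exact permutation p of 0.1, the smallest that 3 against 3 allows) and 104 in replicates 4 to 6 (exact permutation p of 0.8).

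The same contrast in fertilized blastocysts was set beside that of SCNT embryos. Origin, mouse strain, experiment and a possible injection of control morpholino cannot be told apart here. In addition, the fertilized control ICM replicate 1 held genes of both lineages. Its ICM genes followed the label, with 561 TPM of Nanog, 859 TPM of Spic and 438 TPM of Upp1 against at most 175, 210 and 44.4 TPM in the fertilized TE. Its TE genes went against the label. It held 57.7 TPM of Cdx2, 1509 TPM of Gata3, 10274 TPM of Krt18 and 135 TPM of Anxa3, whereas ICM replicate 2 held 0.222, 63.7, 108 and 0.351 TPM, and its TE list sum was 21762 TPM against 1004 TPM. It was kept, and values are given with and without it.

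For 19 of the 20 lineage genes the direction of the mean difference was shared. These genes were picked for their difference in SCNT embryos. The share of all genes with a shared direction is not given here, so the count has no background. With both fertilized ICM libraries the log2 difference was 1.95 for Nanog, -2.87 for Cdx2, 5.42 for Upp1 and -4.11 for Anxa3. With ICM replicate 2 alone it was 2.05, -5.67, 5.46 and -7.43. In SCNT embryos the same genes gave 1.47, -1.90, 4.09 and -5.05. Grhl2 had a small positive difference in fertilized embryos (0.26) and a negative one in SCNT embryos (-1.47).

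**Figure D5:**
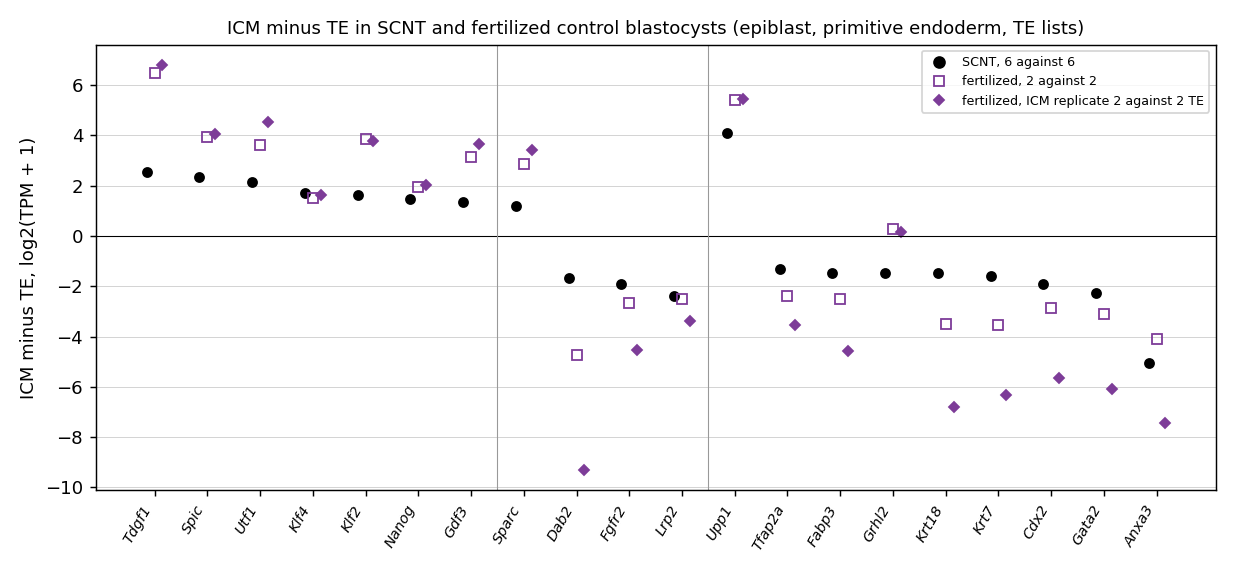
The y axis is the ICM minus TE difference in mean log2(TPM + 1) for the 20 lineage genes, for SCNT embryos (circles, 6 against 6), fertilized controls (squares, 2 against 2) and fertilized controls with ICM replicate 2 only (diamonds). Of the 20 genes, Grhl2 alone lies on opposite sides of 0, at -1.47 in SCNT and 0.26 in fertilized embryos.

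In the test of the difference between origins, 1 of 10847 genes passed (0.00922%), and 327 had an unadjusted p under 0.05. It was Snord19, a small nucleolar RNA named after its values were seen, with an interaction of -3.83 ± 0.56 on the log2 scale and a limma adjusted p of 0.0277. It had a mean of 0.0800 TPM in the 12 SCNT libraries and reached the filter of this fit through the fertilized ICM, the group in which it was high, so its call is no independent evidence. No gene passed with the replicate block, with quantile normalization or without either fertilized TE library. None of the 20 lineage genes passed, each with an adjusted p of 1. Without the fertilized ICM replicate 1, 27 of 10703 genes passed (0.252%). Of the 3 lineage lists these included Krt18 (5.30), Id2, an inhibitor of differentiation factors (4.67), Dppa1 (7.27) and Dab2 (7.64), each with a limma adjusted p of 0.0261 or less. In the remaining fertilized ICM library Krt18 was 108 TPM against 2258 TPM as the SCNT ICM median, Id2 was 22.4 against 350 TPM, Dppa1 was 1.13 against 520 TPM, and Dab2 was 1.49 against 118 TPM. Nr0b1, an orphan receptor of naive cells, was 22.8 TPM in that library and had a median of 0 TPM in the SCNT ICM. Nr0b1 reached the filter through that library alone. These values rest on 1 fertilized ICM library, assumed to vary like the other groups.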

How the data were processed

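Reads were trimmed by the authors (cutadapt 1.16), aligned to the mm10 assembly by HISAT2 and quantified per gene by StringTie, and the submitters' processing notes also name Cufflinks and deepTools. They deposited 1 gene table per library with coverage, FPKM and TPM. In the deposited tables, loci assembled in each library sum to 1000000 TPM and 24421 annotated symbols come on top, so the deposited TPM was treated as a signal scaled to those loci. The deposited coverage signal divided by the deposited FPKM gave aligned gigabases. Count tests and counting intervals were not used here, as the tables analysed hold no counts, and the reads behind a single value are unknown. Strand and multi-mapping settings are not given in the sources used here.

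The TPM of annotated rows was summed per gene. Genes with a mean of at least 1 TPM were fitted as log2(TPM + 1), which understates changes of low genes, with limma 3.58.1 (lmFit, eBayes with a trend; R 4.3.3), with p adjusted by Benjamini-Hochberg over all genes tested, a threshold of 0.05 and 2-fold. The steps were tested on simulated data. A gene held when the mean difference was at least 1 on the log2 scale in the same direction in replicates 1 to 3 and in replicates 4 to 6; this rule has no p, since 3 against 3 cannot go below 0.1. Fertilized libraries entered a fit with a term for lineage by origin. Genes detected were compared by a two-sided exact permutation test.

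Replicate numbers come from the labels, where the protocol speaks of 3 replicates per stage while 6 are numbered. Deviations from the group means of an ICM and a TE library with the same number correlated at 0.12 to 0.28 in all 6 pairs, those with another number of the same set of 3 at 0.11 to 0.26, and those of different sets at -0.24 to -0.10. Of the ICM libraries, 2 had their highest correlation with the TE library of their own number. The correlations thus followed the set of 3 and gave little sign of pairing by number. The number was used as a block, and the set of 3 as a term, among the alternatives.

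Named genes were the 4 markers; list genes that held, or were among the 2 most abundant of a list with fewer than 2 calls; and, outside the lists, genes past the threshold that held without overlap at a mean of at least 5 TPM. The 20 gene lists (403 members), the members and the rules were chosen with earlier results of these data known. The alternatives were pseudocount, filter, scaling, replicate block, replicate sets, all 53 SCNT embryo libraries in 1 fit, the largest row per gene, and, chosen after seeing the data, leaving out each SCNT library. The 8 libraries of other injections were not used. Sequences are from RefSeq on GRCm38.p6, the assembly also called mm10. Anxa3 had no entry. Some list genes that held are not reported here.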

Additional observations from a re-analysis of the deposited data

Results flagged for a closer look

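In 14 of 136 groups of 6 libraries (68 named genes in the ICM and in the TE), 1 library lay far from the other 5 by Dixon's criterion. For independent normal values it flags about 1 group in 20, or 6.8 here. These groups shared the same 12 libraries and some held values at 0, so 6.8 is only a rough guide. ICM replicate 5 gave 4 of the 14: it was high for Rhod (6.91 TPM), Hspb2 (2.83 TPM) and Phlda2 (20.3 TPM) and low for Lamp1 (252 TPM). Single ICM libraries were low for Tdgf1 (0.469 TPM, replicate 3), Klf2 (0.229 TPM, replicate 3) and Gdf3 (0.373 TPM, replicate 2), and Figla, an oocyte transcription factor, was high in ICM replicate 1 (16.5 TPM, against at most 0.325 TPM in the others). In the TE, Epcam (831 TPM, replicate 1), Spp1 (104 TPM, replicate 5) and Sfmbt2 (5.14 TPM, replicate 5) were low in 1 library. Tfap2a (10.3 TPM, replicate 2), Grhl2 (30.7 TPM, replicate 6) and Phlda2 (46.4 TPM, replicate 3) were high in 1.

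For Snord19, a small nucleolar RNA, the difference between tissues differed with the origin of the embryos by the test of that difference. It was 13.3 and 15.9 TPM in the fertilized ICM libraries and 0 in both fertilized TE libraries, against 0 to 0.86 TPM in the SCNT ICM and 0 to 0.10 TPM in the SCNT TE. The interaction was -3.83 on the log2 scale with a limma adjusted p of 0.0277, and -3.95 with 0.015 without fertilized ICM replicate 1. It did not pass with the replicate block, quantile normalization, a pseudocount of 0.1, SCNT replicates 1 to 3 or 4 to 6 alone, or without either fertilized TE library, and it reached the filter on low values through the fertilized ICM.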

How the results depend on the processing

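The count of 18 genes past the threshold moved with nearly every choice. It was 6 with a pseudocount of 0.1, 6 with all genes above 0, 34 with a mean of at least 5 TPM, 32 with TPM rescaled over annotated genes, 64 with quantile normalization, 634 in the fit of all SCNT embryo libraries (175 toward the ICM, 459 toward the TE), 115 with the replicate set as a term, 49 with the replicate block, 5 in replicates 1 to 3 and 64 in replicates 4 to 6. Leaving out each SCNT library gave 0 to 31. The cause of these moves was not tested. The count of 658 genes in both sets was 1193 with a pseudocount of 0.1 (306 toward the ICM) and 473 to 709 otherwise. Of the 1 gene for lineage by origin, 0 remained with a pseudocount of 0.1, a mean of at least 5 TPM, quantile normalization, the replicate block, or SCNT replicates 1 to 3 or 4 to 6 alone, 105 genes passed with all genes above 0 and 2 with rescaled TPM, and leaving out 1 fertilized library gave 0 to 27. At an unadjusted p under 0.05 the counts of 0 stood beside 79 to 788 genes. The difference in genes detected turned to 104 in replicates 4 to 6, and its replicate block p was 0.188 (exact sign-flip).

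Of the 68 genes picked by the naming rules, 58 kept their direction under every alternative that gave a value (23 for 55 of them, 21 for Tfap2a, 20 for Star and Figla). Other genes mentioned in the text were not counted here. Among these, Gata6 (-1.32 and 1.68) and Tfap2c (1.02 and -0.19) changed direction between replicates 1 to 3 and 4 to 6. Within replicates 1 to 3 the log2 difference was -0.028 for Dppa5a, -0.37 for Hprt, 0.26 for Lamp1, 0.27 for Aldoa, -0.062 for Cbx3 and -0.13 for Trim28, and within replicates 4 to 6 -0.32 for Cyr61 and -0.33 for Bax. Map2k2 was -0.023 with quantile normalization. Leaving out each library gave -0.32 to 0.019 for Atp1b3, -0.25 to 0.37 for Map2k2, -0.0429 to 0.295 for Hprt, -0.060 to 0.45 for Trim28 and -0.15 to 0.21 for Bax. Each library held about 10 cells and the reads behind a value are unknown, so a low value of 1 gene in 1 library cannot be told from a missed gene.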
